A study of Mus musculus with 6 samples.

Results

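A set of 10 activity-induced transcription factor genes was followed in mouse leukemia cells that had lost the repressor Hes1. The members, given by name, were Egr1, Egr2, Egr3, Fos, Fosb, Fosl2, Jun, Junb, Jund and Nr4a1, and every array probe whose platform annotation named 1 of them was read. This gave 14 probes of 10 genes, out of 45281 probes and 19057 named genes on the array. The cells were T-ALL, the acute lymphoblastic leukemia of immature T cells, raised by retroviral delivery of activated NOTCH1 (ΔE-NOTCH1) into mouse bone marrow progenitors and passaged in irradiated NRG immunodeficient hosts. In both groups the leukemias carried Rosa26 Cre-ERT2, a Cre recombinase made in most cell types and switched on by tamoxifen, and Hes1flox/flox. Per the labels, the KO group was 3 samples given 4-hydroxy-tamoxifen for 36 hours, and the WT group was 3 samples given ethanol for 36 hours, with Hes1 left intact. The labels also describe tamoxifen at 5 mg per mouse, or its vehicle, in secondary hosts, and RNA taken from tumors of mice. Since the drug was never given to cells that kept Hes1, Hes1 loss cannot be told apart from effects of 4-hydroxy-tamoxifen or of active Cre in any value below. The titles number biological replicates, with no word on whether each was its own leukemia, mouse or culture, and leave unclear whether each RNA came from treated cells in culture or from treated mice, so the p-values reflect only how much these samples varied, and that variation may be technical.

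Most of these genes are known as immediate early genes. Such genes are switched on within minutes of a signal by factors that are already in the cell. These factors include serum response factor with its ternary complex partners and CREB. The products of all the members are themselves transcription factors. EGR proteins bind GC-rich sites through zinc fingers, FOS and JUN proteins pair through leucine zippers to form the AP-1 complex, and NR4A1 (NUR77) is an orphan nuclear receptor. In developing T cells, T-cell receptor signalling through ERK and calcium induces many of these genes, and Egr and Nr4a levels are used as readouts of signal strength.

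Promoter windows in RefSeq (GRCm38.p6, 250 bases before to 50 after a gene's start) were matched for 8 of the 10 genes. Egr1 and Egr3 are not shown. The 3 windows printed are those of Egr2 and Jun, whose levels followed the same order over the 6 arrays, and of Fosl2, which lay the other way. Egr2 has several windows, and the third by position (chr10:67537619-67537918, plus strand) is given. The Jun window is chr4:95052173-95052472, minus strand, and the Fosl2 window is chr5:32136222-32136521, plus strand. All read 5′ to 3′, and capitals mark matches on either strand to a CArG box (the serum response factor motif), to TGACG (the core of the cyclic AMP response element), to GCGNGGGCG (an EGR site) or to TGACATCA (the AP-1-like site described in the Jun promoter, added after the sequence was seen).
Egr2: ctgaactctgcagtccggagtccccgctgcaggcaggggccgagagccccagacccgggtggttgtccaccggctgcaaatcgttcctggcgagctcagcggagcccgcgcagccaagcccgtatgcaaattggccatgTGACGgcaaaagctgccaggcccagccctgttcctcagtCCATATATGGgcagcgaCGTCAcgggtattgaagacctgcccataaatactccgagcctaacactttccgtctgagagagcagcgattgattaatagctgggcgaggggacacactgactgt
Jun: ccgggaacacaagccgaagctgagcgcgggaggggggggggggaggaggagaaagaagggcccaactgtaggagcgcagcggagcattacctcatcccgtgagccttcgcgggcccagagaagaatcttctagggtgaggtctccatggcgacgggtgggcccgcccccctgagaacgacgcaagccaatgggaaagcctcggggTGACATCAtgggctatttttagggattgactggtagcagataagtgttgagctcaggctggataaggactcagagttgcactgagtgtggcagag
Fosl2: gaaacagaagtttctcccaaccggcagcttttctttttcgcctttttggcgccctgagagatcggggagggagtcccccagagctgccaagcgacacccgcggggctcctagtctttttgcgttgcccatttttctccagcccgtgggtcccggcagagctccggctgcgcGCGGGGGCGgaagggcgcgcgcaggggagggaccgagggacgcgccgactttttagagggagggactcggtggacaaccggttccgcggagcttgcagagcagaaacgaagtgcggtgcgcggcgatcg

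The Egr2 window held 1 CArG box, with its first base at -72 from the start site, and 2 TGACG sites. Of all 32851 RefSeq windows of the same length, 1.63% held a CArG box and 20.8% a TGACG. The Jun window held TGACATCA, which 3.62% of all windows hold, and no TGACG. The Fosl2 window held 1 EGR site, found in 5.55% of all windows. The N-box CACNAG, a motif bound by HES1, occurred once in the Jun window and in 0 of the printed Egr2 and Fosl2 windows, against 42.5% of all windows, and the fifth Egr2 window by position held 1. The class C E-box CACGNG, the other HES1 motif searched, occurred once in each of the 3 windows and in 27.5% of all windows, and in Egr2 it overlaps the second TGACG. The palindrome TGACGTCA, the AP-1 consensus TGANTCA and the ETS core CCGGAA occurred in none of the 3 windows, against 1.79%, 7.81% and 14.9% of all windows. These absences hold for the printed windows only, and the second Egr2 window by position held 3 ETS cores and 1 CArG box. These matches describe letters in these windows and are not evidence of binding.

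The RNA was hybridised to Illumina mouse bead arrays. Mean probe intensity ran from 520 to 687 units on the KO arrays and from 703 to 713 on the WT arrays, with KO replicate 1 the dimmest, and 15807 to 16685 probes per array were detected at p under 0.05. A detected probe read at least 145.2 to 169.1 units, depending on the array. Hes1, the deleted gene, was detected on 0 of 3 KO arrays and 3 of 3 WT arrays and was at least 53.5-fold lower in KO (limma adjusted p 1.0e-06), in accord with the labels. Over all 11241 features tested, 7 passed a limma adjusted p of 0.05. Of the T-lineage marker list, 8 of 11 genes with a probe were detected on all 6 arrays, among them Cd3d, Cd3e, Cd3g, Cd2 and Thy1, while Cd8a and Cd5 were detected on none. Levels of different probes cannot be ranked against each other on these arrays, so no order of the members by level is given.

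Egr1, Jun and Junb were clearly expressed in these leukemias, Egr2, Egr3, Fosl2 and Jund sat at the edge of detection, and Fos, Fosb and Nr4a1 were not detected on 3 or more arrays. Of the 7 genes that could be tested, 6 had higher means in KO, as 50.5% of all features did, and 1, Fosl2, had a lower mean. Egr1 was 1.70-fold higher in KO and Jun 1.38-fold higher. None of them passed the limma test over all features (0 of 7 at an adjusted p of 0.05, where 0.0623% of all features passed), and 3, namely Egr1, Jun and Egr2, had an unadjusted p under 0.05 as higher in KO, where 5% of all features did. Of these, Egr2 was tested only because it was detected on the KO arrays, so its direction was partly set by that selection. In bulk samples, fewer cells expressing a gene and less RNA per cell cannot be told apart.

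**Figure D1:**
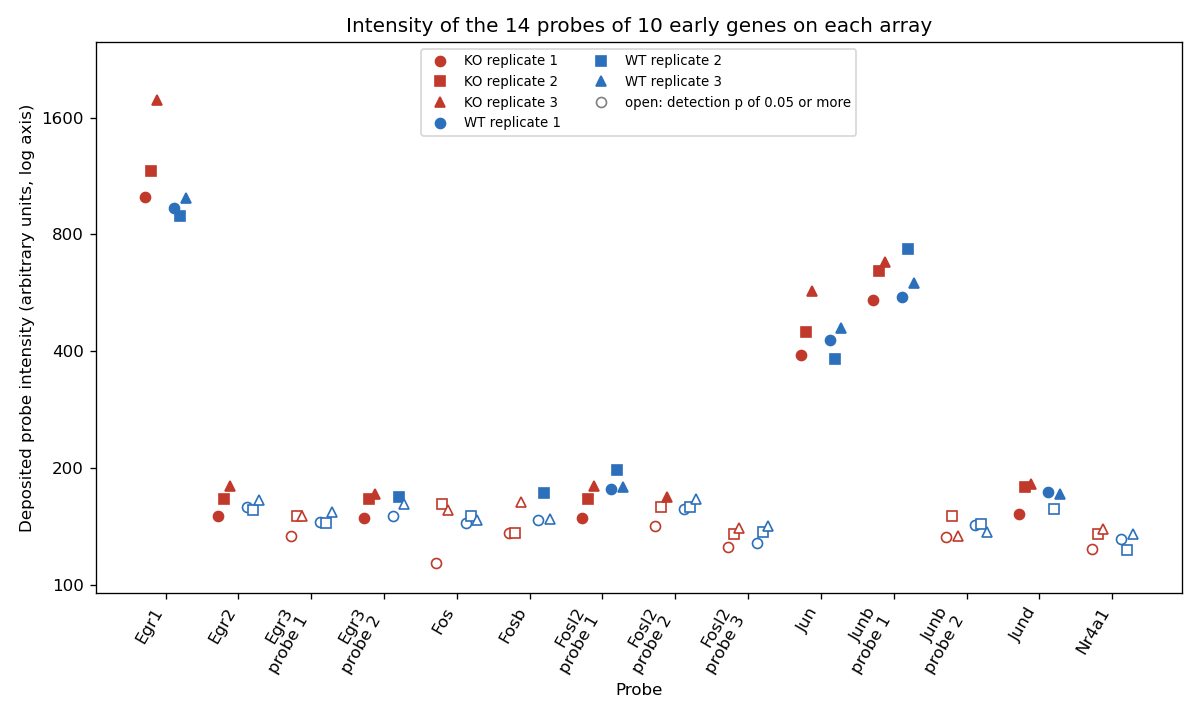
Deposited intensity (arbitrary units, log axis) of each of the 14 probes on the 3 KO arrays (red, left) and the 3 WT arrays (blue, right). Filled symbols are detected at p under 0.05. The single probes of Egr1 and Jun and 1 Junb probe stand well above the rest, which lie near the detection limit.

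Egr1, a zinc finger factor widely used as a marker of ERK signalling, was measured by 1 probe (ILMN_2662926). It read 997.1, 1168.4 and 1777.8 intensity units on KO replicates 1, 2 and 3, against 937.5, 891 and 991.7 on WT replicates 1, 2 and 3. All 3 KO values lay above all 3 WT values, although KO replicate 1 exceeded the highest WT array by little. After background correction and quantile normalisation, the log2 intensity was 10.21, 10.14 and 10.59 in KO, against 9.53, 9.47 and 9.66 in WT. The normalised groups did not overlap, and KO replicate 1, the dimmest array, no longer stood close to WT. The means were 10.32 ± 0.24 in KO and 9.55 ± 0.10 in WT (SD, n = 3 each). The difference was 0.76 ± 0.15 (SE, log2) with a 95% interval of 0.42 to 1.10, and the limma adjusted p was 0.166. Ranked by p, Egr1 was feature 64 of 11241. With arrays weighted by their estimated quality, the difference was 0.81 and the limma adjusted p 0.0400, the only 1 of 14 alternatives in which a member passed.

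Egr2, which in T cells restrains activation and supports survival of selected thymocytes, was also read by 1 probe (ILMN_2623983). Its intensities were 150.2, 165.9 and 179.9 in KO and 158, 155.9 and 165.2 in WT, so the groups overlapped before normalisation. It was detected on all 3 KO arrays and on 0 of the WT arrays, where detection p was 0.0865, 0.122 and 0.0684. The normalised log2 values were 5.43, 5.39 and 5.57 in KO, against 5.14, 4.95 and 5.18 in WT. They did not overlap, but Egr2 entered the test only through the KO arrays, so a difference in that direction was built into its selection. The measured means were 5.47 ± 0.09 in KO and 5.09 ± 0.12 in WT (SD, n = 3 each). The difference was 0.38 (log2) with a 95% interval of 0.11 to 0.64, and the limma adjusted p was 0.374. With the detection limit taken as the WT level, the KO mean was 1.13-fold higher. This fold is not a minimum rise, because the interval reaches lower. With the authors' deposited log2 values, the Egr2 difference was 0.11.

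Egr3, a close relative that is induced with Egr2 through calcineurin and NFAT, had 2 probes. The probe ILMN_2653543 read 148.5, 165.9 and 170.7 units in KO and 150, 167.8 and 160.9 in WT, and was detected on 3 of 3 KO arrays and 1 of 3 WT arrays. Its normalised log2 values were 5.37, 5.39 and 5.30 in KO and 4.91, 5.30 and 5.05 in WT, with KO replicate 3 only just above WT replicate 2. The difference was 0.27 ± 0.13 (SE, log2; limma adjusted p 0.583). The other probe, ILMN_1227494, was detected on no array.

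Jun, the core AP-1 subunit that can pair with itself or with FOS proteins, was read by ILMN_2646625. Its intensities were 391.8, 446.9 and 571.2 in KO and 427.5, 381.4 and 458.3 in WT. The raw groups overlapped, with KO replicate 1 below 2 of the WT arrays. The normalised log2 values were 8.54, 8.45 and 8.68 in KO, against 8.12, 7.86 and 8.28 in WT, and no longer overlapped. The means were 8.56 ± 0.12 in KO and 8.09 ± 0.21 in WT (SD, n = 3 each). The difference was 0.47 ± 0.14 (SE, log2) with a 95% interval of 0.14 to 0.79, and the limma adjusted p was 0.373.

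Junb, a JUN relative that often opposes JUN in proliferation, had 1 bright and 1 dark probe. The bright probe, ILMN_1220034, read 541.4, 642.6 and 677.8 units in KO and 550.7, 734.7 and 597.4 in WT. Its normalised log2 values were 9.17, 9.13 and 9.0 in KO, against 8.61, 9.12 and 8.77 in WT. The groups overlapped because WT replicate 2 reached the KO level. The difference was 0.27 ± 0.15 (SE) with a 95% interval of -0.08 to 0.62 and a limma adjusted p of 0.63. The other Junb probe, ILMN_1254833, was detected on no array.

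Jund, the JUN protein that is usually present in resting cells, was read by ILMN_2682788. It read 151.9, 178.5 and 181.8 units in KO and 173.1, 156.4 and 171.5 in WT, with detection on 3 of 3 KO and 2 of 3 WT arrays. The normalised log2 values were 5.50, 5.77 and 5.62 in KO, against 5.58, 4.97 and 5.37 in WT. WT replicate 1 lay above KO replicate 1, so the groups overlapped. The difference was 0.33 ± 0.17 (SE, log2; limma adjusted p 0.615).

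Among the FOS proteins, which bind DNA only when paired with a JUN protein, Fosl2 (FRA-2) alone could be tested. Its probe ILMN_1252481 read 148.4, 166.1 and 179.3 units in KO and 176.2, 197.2 and 178.4 in WT and was detected on all 6 arrays. The normalised log2 values were 5.37, 5.40 and 5.55 in KO, against 5.65, 6.02 and 5.57 in WT. They did not overlap, but KO replicate 3 and WT replicate 3 nearly met. The difference was -0.31 ± 0.15 (SE), with a 95% interval of -0.65 to 0.03 and a limma adjusted p of 0.582. The remaining Fosl2 probes did not reach the test: ILMN_2718801 was detected on 1 KO array and no WT array, with a difference of 0.05, and ILMN_2768924 was detected on none.

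Fos, the prototype of the family, was detected on none of the 6 arrays. Its probe ILMN_2750515 read 113.5, 161.7 and 155.3 units in KO and 144.5, 149.8 and 146.5 in WT. KO replicate 2 came nearest to detection, with a detection p-value of 0.0534 from the deposited table, and the KO arrays spread more widely than the WT arrays. Fosb, which encodes a close relative of FOS, was detected on WT replicate 2 alone, where ILMN_2778279 read 171.8 units. Its other values were 135.9, 135.5 and 163 in KO and 146.4 and 147.4 in WT.

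Nr4a1 (ILMN_2701881) was detected on none of the arrays, with 123.2, 135.3 and 139.4 units in KO and 131.1, 122.7 and 135 in WT. Its normalised values ran from 4.54 to 4.55 in KO and from 4.38 to 4.52 in WT. These did not overlap, yet all lay below the detection limit, so no fold is given. None of Fos, Fosb and Nr4a1 met the requirement of detection on at least 3 arrays, and they were not tested.

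**Figure D2:**
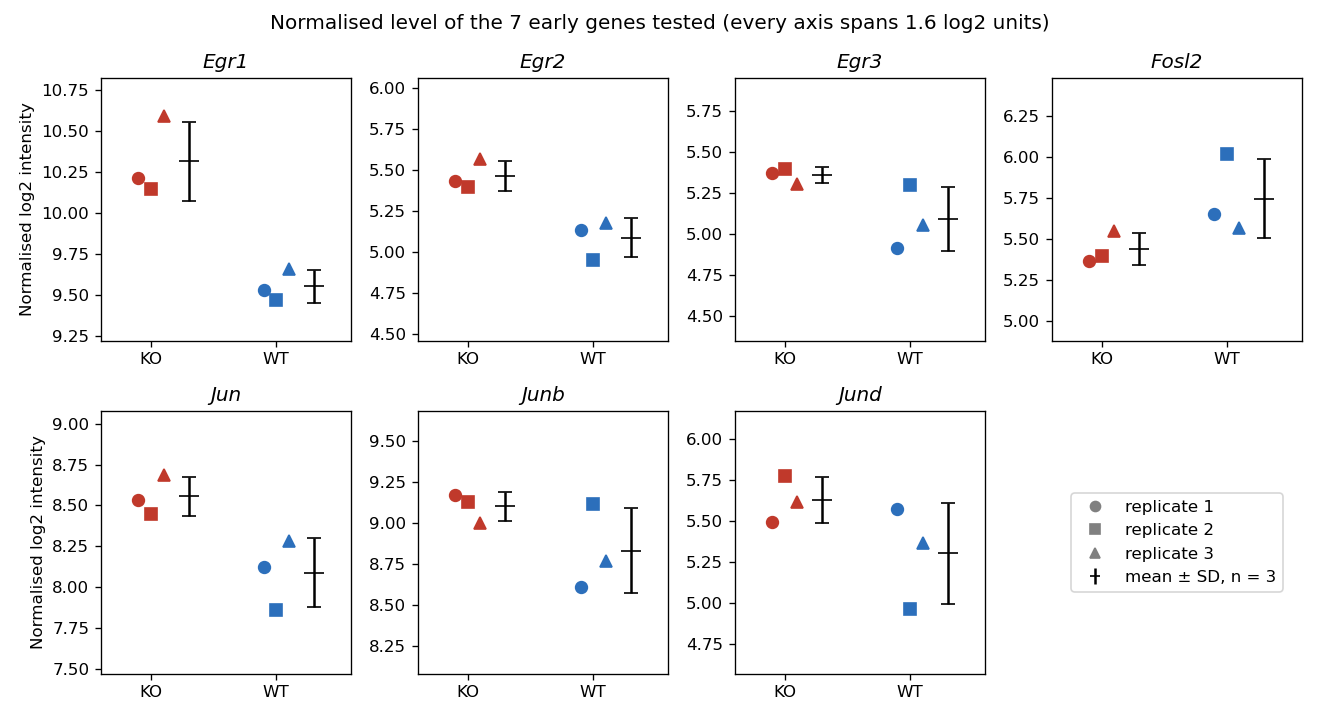
Normalised log2 intensity of the 7 genes tested, by array, with KO left of WT and the mean ± SD beside the points (n = 3 each). Every panel spans the same range of log2 units. Egr1, Egr2, Egr3 and Jun have all KO points above all WT points, Fosl2 has them below, and Junb and Jund overlap.

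Across the 7 genes tested, all KO values lay above all WT values in 4, namely Egr1, Egr2, Egr3 and Jun, where 8.49% of all features did so, and below in 1, Fosl2, where 7.69% of all features did so. The median KO minus WT of the 7 was 0.33 on the log2 scale, beside 0.00 for all features tested. The central 95% of all features lay between -0.45 and 0.55, so that the Egr1 difference lay outside that range and the other 6 inside it. These 7 are not all the members: 3 were not detected enough to be tested, and Egr2 passed the detection filter through KO alone. Egr3 and Jund, detected on 1 and 2 of the 3 WT arrays, also needed their KO arrays to pass it. The count of 4 and the median were therefore partly set by the filter. On the deposited intensities, before any correction for the dimmer KO arrays, only 1 of the 14 probes, that of Egr1, had all KO values above all WT values, where 0.475% of all 45281 probes did so.

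**Figure D3:**
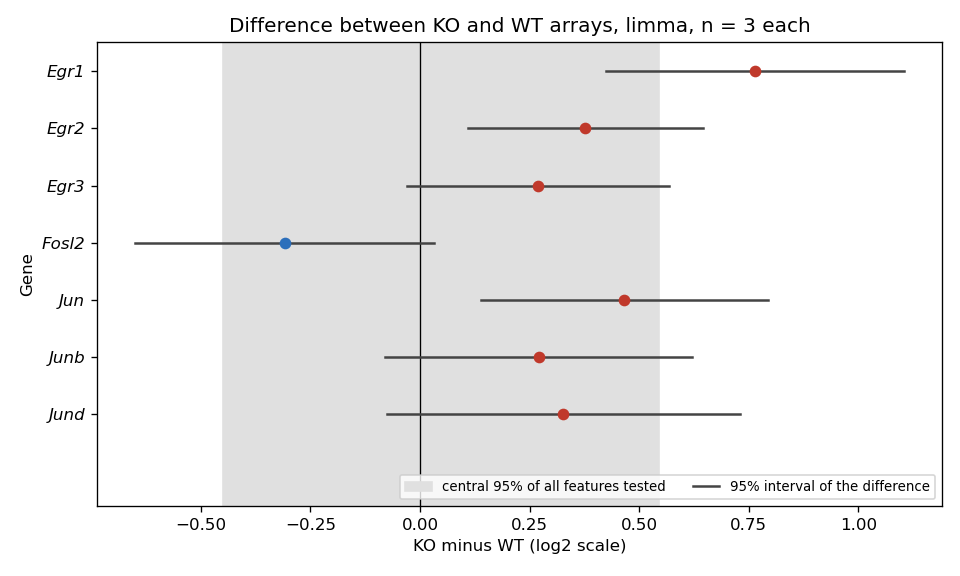
Difference of KO minus WT (log2) with its 95% interval from limma for the 7 genes tested (n = 3 each), over a grey band that holds the central 95% of all features tested. The intervals of Egr1, Egr2 and Jun lie above 0, those of the other 4 include 0, and none of the 7 passed after adjustment over all features.

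Egr1, Egr2 and Jun moved together from array to array. Each was highest on KO replicate 3, then KO replicate 1, KO replicate 2, WT replicate 3, WT replicate 1 and WT replicate 2. Over the 6 arrays, Pearson's r with Egr1 was 0.970 for Egr2 and 0.940 for Jun, against 0.611 for Egr3, 0.621 for Jund, 0.477 for Junb and -0.66 for Fosl2. These correlations are descriptions over 6 arrays that include the difference between the groups. Among all features tested, the 5 most like Egr1 by this measure were Pou2af1 (r = 0.990), Dmwd (0.985), Prr18 (0.984), the unnamed probe ILMN_1218686 (0.982) and Atp13a2 (0.981). Prr18 and ILMN_1218686, like Egr2, were detected on 3 of 3 KO and 0 of 3 WT arrays and passed the detection filter through KO alone, so part of their likeness to Egr1 was set by that selection. Pou2af1 encodes a lymphoid coactivator of octamer-binding factors and was higher in KO by 0.56 log2 units (limma adjusted p 0.235).

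The differences of the dim genes were smaller without background correction. With the authors' deposited log2 values, which carry no background subtraction, the difference was 0.11 for Egr2, 0.08 for Egr3, 0.09 for Jund and -0.09 for Fosl2. Egr1 measured 0.68 and Jun 0.33 on the same values. Median scaling in place of quantile normalisation moved the median of all features to -0.17. The differences as fitted were 0.57 for Egr1, 0.36 for Egr2, 0.30 for Jund, 0.28 for Jun, 0.24 for Egr3, 0.07 for Junb and -0.35 for Fosl2. Of these only 1, that of Egr1, had an unadjusted limma p under 0.05 (adjusted p 0.421). Relative to the shifted median Egr1 measured 0.74, Egr2 0.53, Jund 0.47, Jun 0.45, Egr3 0.42, Junb 0.24 and Fosl2 -0.18. No tested member changed direction in any of the alternatives run, which are shown in the plot of alternatives.

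**Figure D4:**
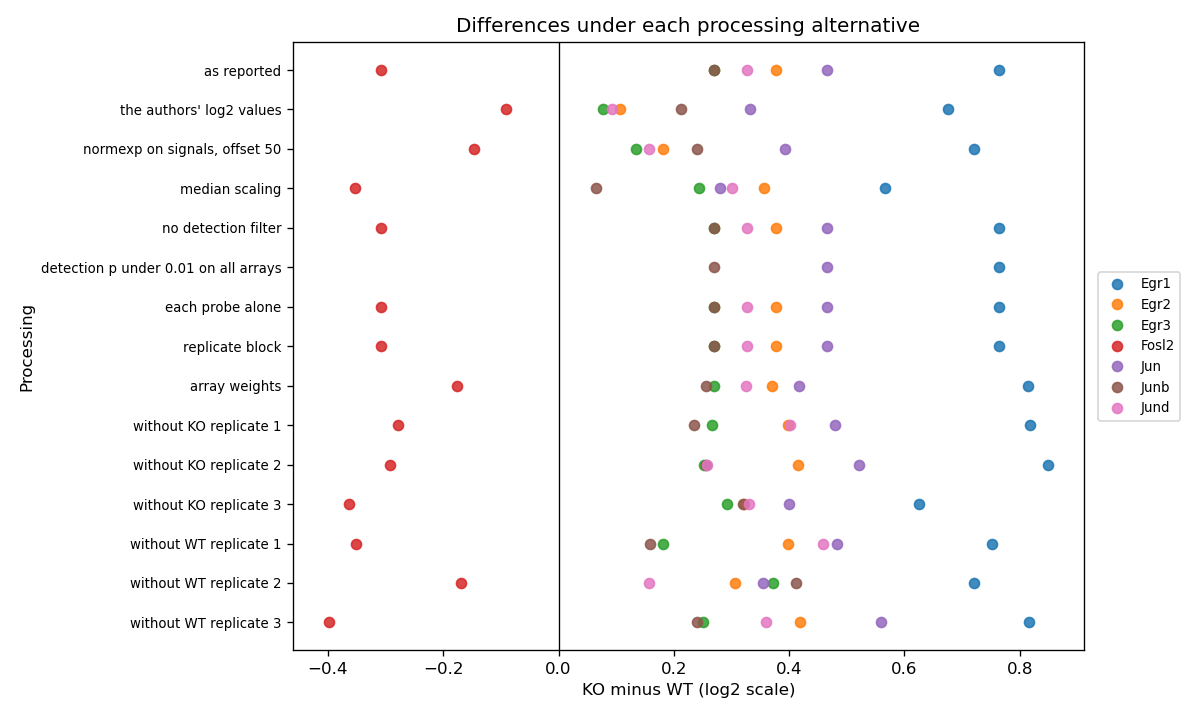
KO minus WT (log2) of the 7 genes tested under the reported processing and each alternative, including the fits without 1 array. Points of Fosl2 stay left of 0 and those of the other 6 genes right of it, and with detection p under 0.01 on all arrays only Egr1, Jun and Junb remain.

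Genes that work around these factors showed small differences, and none passed over all features. Of the relatives Egr4, Nr4a2 and Nr4a3 and the NAB corepressors, which bind EGR proteins and hold them in check, 3 of 5 were tested, 0 passed in either direction, and the median was -0.12. Nab2, itself an Egr target, averaged 5.01 ± 0.30 in KO and 5.48 ± 0.42 in WT (SD, n = 3 each; adjusted p 0.596), and was detected on 1 of 3 KO and 2 of 3 WT arrays. Nr4a2 measured 0.13 and Nab1 -0.12. Of 11 other AP-1 partners and inhibitors, 6 were tested and 0 passed, 3 with higher and 3 with lower means. Jdp2, a bZIP repressor of AP-1, averaged 8.65 ± 0.05 in KO and 8.90 ± 0.12 in WT (limma adjusted p 0.566), and Batf3, a dimer partner of JUN proteins, 5.64 ± 0.18 in KO and 5.96 ± 0.21 in WT (limma adjusted p 0.579). The groups of Jdp2 and of Batf3 did not overlap, with KO below WT as in 7.69% of all features, and a second Batf3 probe measured -0.18. On the deposited intensities the Batf3 groups overlapped. Atf7, a CREB-related partner of JUN, measured 0.46 with overlapping groups (limma adjusted p 0.611). Batf, a JUN partner in lymphocytes, measured 0.19 with all KO values above all WT values, as in 8.49% of all features (limma adjusted p 0.63). Its deposited intensities overlapped too.

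The median difference of the other immediate early genes was 0.02. Of 31 listed, 18 were tested, 12 were detected on no array, and 0 passed, with 11 higher and 7 lower means. Csrnp1 measured 0.23, Nfkbiz 0.22, Trib1 -0.29 and Ets2 -0.14, with limma adjusted p from 0.609 to 0.695. A second Trib1 probe measured 0.09. Pim1, a serine/threonine kinase gene named after its values were seen, averaged 6.13 ± 0.88 in KO and 6.59 ± 0.11 in WT (SD, n = 3 each), a difference of -0.46 with overlapping groups (limma adjusted p 0.729), and its other probe measured -0.55. Of 13 regulators of the SRF, ternary complex and CREB kind, 10 were tested, 0 passed and the median was 0.05. Elk4, a ternary complex factor that recruits ERK signals to CArG boxes, measured 0.13, with other detected probes at 0.31 and 0.09. Of 8 heat shock genes that mark handling stress, 3 were tested and 0 passed, with Hsph1 at 0.10, Dnajb1 at -0.03 and Hspa8 at 0.02. The other Hspa8 probes, each detected on all 6 arrays, measured -0.34 and -0.19.

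The feedback inhibitors of MAP kinases, many of them ERK targets, held 3 genes with an unadjusted p under 0.05, all higher in KO, among 8 tested of 12 listed, where 5% of all features were. Dusp7 averaged 9.24 ± 0.15 in KO and 8.91 ± 0.13 in WT, Dusp5, a nuclear ERK phosphatase, 8.22 ± 0.06 in KO and 7.90 ± 0.20 in WT, and Dusp6, a cytoplasmic ERK phosphatase, 9.25 ± 0.19 in KO and 8.96 ± 0.03 in WT (SD, n = 3 each). After normalisation the groups did not overlap in any of the 3, with KO above WT as in 8.49% of all features. The limma adjusted p was 0.485, 0.501 and 0.538. On the deposited intensities the groups overlapped in all 3. Dusp1, the immediate early phosphatase of JNK and p38, lay the other way at -0.26. The median over the 8 was 0.15. A second detected Dusp6 probe measured 0.22.

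Of 17 ERK and JNK pathway genes, 9 were tested and 0 passed, with a median of 0.00. Rasgrp1, the Ras activator of T-cell receptor signalling, was the 1 gene of the 9 with an unadjusted p under 0.05, where 4.27% of all features had one as lower in KO, and averaged 9.99 ± 0.05 in KO and 10.30 ± 0.10 in WT (SD, n = 3 each; adjusted p 0.451), and another of its probes measured -0.76. Of 9 calcium and NFAT genes, 8 were tested, 0 passed and the median was 0.03, with 5 higher and 3 lower means. Nfatc3 measured 0.21 (limma adjusted p 0.611), and its other probes ran from -0.36 to 0.30. Rcan1, a calcineurin-induced gene, measured 0.27 with overlapping groups (limma adjusted p 0.655). Nfatc1 lay the other way at -0.17 and Orai1 at -0.21.

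Markers of other cell types were read beside these values. Summed normalised signals, which include the background floor of each probe, ran from 1021 to 1359 in KO and from 771 to 945 in WT for 7 stromal and endothelial genes. Of these only Pecam1 was detected on all arrays, and it carried most of the sum. It averaged 9.93 ± 0.25 in KO and 9.40 ± 0.18 in WT (SD, n = 3 each; limma adjusted p 0.378). The deposited Pecam1 intensities overlapped, and another Pecam1 probe, detected on all 6 arrays, measured 0.37. Pdgfrb, the other gene tested, measured -0.01, while Col1a1, Col3a1 and Vcam1 were detected on none. For 4 NK cell genes the sum ran from 823 to 2696 in KO and from 426 to 998 in WT, carried by the perforin gene Prf1. Prf1 measured 1.24 higher in KO with overlapping groups, and another Prf1 probe, detected on 1 array, measured -0.31. The brightest probes of the NK receptor genes Ncr1 and Klrk1 were detected on no array, but only 1 of the 4 genes lacked any detected probe. For 11 myeloid genes the sum was 296 to 326 in KO and 278 to 283 in WT, and 9 were detected on no array, among them Lyz2, Cd14, Itgam and S100a8. The 5 B-lineage genes summed to 143 to 168 in KO and 144 to 158 in WT, with Cd79b, Pax5 and Blnk detected on none. Among them Ebf1, an early B-cell transcription factor gene, was detected on 3 of 3 KO and 0 of 3 WT arrays and so entered the test through KO alone. It averaged 5.44 ± 0.21 in KO and 5.22 ± 0.05 in WT (SD, n = 3 each). All normalised KO values lay above all WT values, as in 8.49% of all features, while the deposited intensities overlapped. The limma unadjusted p was 0.139 and the adjusted p 0.647, so no minimum rise is given. The 4 erythroid genes summed to 112 to 125 in KO and 104 to 117 in WT, with Hba-a1 and Alas2 detected on none. The 11 T-lineage genes summed to 96995 to 106364 in KO and 93935 to 103019 in WT. Of the 8 tested, 4 had higher and 4 lower means in KO, and 0 passed. All normalised KO values lay above all WT values in 2, where 8.49% of all features did so. These were Cd2 at 0.52 (limma adjusted p 0.193) and Thy1 at 0.14 (0.690). They lay below in 1, Ptcra at -0.25 (0.580), where 7.69% of all features did so. The part of these markers in the early gene values was not tested.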

How the data were processed

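Total RNA from 3 KO and 3 WT samples was amplified from 10 ng and biotin-labelled, per the labels' protocols. The deposited table gave, per the file headers, a detection p-value beside each probe's linear intensity, with no background subtraction or normalisation. The authors' deposited log2 values equalled quantile-normalised log2 intensities within 5.0e-05. For the array software and genome build, nothing is given in the sources used here, and 0 columns of other samples were present. Intensities were processed with neqc in limma 3.58.1 (R 4.3.3; offset 16). Probes with detection p under 0.05 on at least 3 arrays were kept (16287), and the brightest probe represented a gene, which gave 11241 features (8836 named). KO minus WT was tested with lmFit and eBayes and Benjamini-Hochberg adjustment over all features. A fold written "at least" sets the group with no detected array at its detection limit. Symbols came from the platform annotation. In simulated data for KO minus WT (3 runs of 200 changed genes, a mean of 15050 features each), 0% of genes changed by 0.5 on the log2 scale were recovered, 60.5% by 1 and 89.8% by 2. The changed genes were drawn from probes with detection p under 0.01 on all arrays. These rates therefore do not cover Egr2, Egr3, Fosl2 and Jund. The simulated data also kept more features than the 11241 of the arrays. That setting differs from the real one, so the rates are only approximate for Egr1, Jun and Junb. Named genes were the members, Hes1, up to 4 tested genes per list by p, the 5 features most like Egr1, and markers. Cell type markers outside that rule were chosen with their values in view. The members and lists were chosen with earlier results of these data known.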

Additional observations from a re-analysis of the deposited data

How the results depend on the processing

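All 7 tested members kept their direction in every alternative that gave a value. The number of members past an adjusted p of 0.05 was 0 in 13 of 14 alternatives and 1 with array weights (Egr1). Over the fits without 1 array it was 0 throughout, Egr1 ran from 0.63 to 0.85, Jun from 0.35 to 0.56, Egr2 from 0.31 to 0.42, Egr3 from 0.18 to 0.37, Jund from 0.16 to 0.46, Junb from 0.16 to 0.41 and Fosl2 from -0.40 to -0.17. Jund (0.16), Fosl2 (-0.17) and Junb (0.41) moved most without WT replicate 2, and without WT replicate 1 Junb measured 0.16 and Egr3 0.18. The adjusted p of Egr1 ran from 0.0400 to 0.531. The number of features past the test, 7 as reported, was 36 with the authors' log2 values, 30 with normexp on the signals alone (offset 50), 23 with median scaling, 17 with detection p under 0.01 on all arrays, 2 with a replicate block, 119 with array weights, and 2 to 8 without 1 array: leaving out KO replicate 1 gave 8, KO replicate 2 gave 3, and KO replicate 3 or any single WT replicate gave 2. The causes were not tested. Deviations from the group mean correlated at -0.10, -0.27 and 0.15 between same-numbered samples, and at -0.20 to 0.26 between unlike-numbered ones. With 3 arrays per group, these values cannot show whether the numbers pair the samples. With the replicate block, Egr1 had an adjusted p of 0.371, Jun 0.475 and Egr2 0.516, so no member's call changed. Egr2, Egr3, Fosl2 and Jund were absent from the strict filter, which their signal near background did not pass. Signal near background and 3 arrays per group limit these values.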
